A study of Mus musculus with 17 samples.

Results

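SOCS3-deficient mouse macrophages were compared after 400 min and after 100 min in interleukin 6 (IL-6), in 6 of the 17 arrays of the series. The 3 arrays titled KO 400 min and the 3 titled KO 100 min were taken by their titles, and the replicate number in the title was kept as a block. The KO macrophages were grown from marrow of irradiated mice that had been rebuilt with SOCS3-/- fetal liver cells, and the WT macrophages from mice rebuilt with SOCS3+/+ fetal liver cells. All stimulated cells of either genotype received IL-6 at 10 ng/ml, and total RNA was hybridised. Set beside the 6 arrays were 3 arrays of KO cells without IL-6, 3 arrays of WT cells at 400 min, 3 of WT cells at 100 min and 2 of WT cells without IL-6. The labels give no strain, age or sex, and leave unsaid what of Socs3 was deleted. They also leave unsaid whether the arrays of a group come from separate cultures or mice. The p-values therefore speak only of the spread among these arrays, and that spread may be technical.

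IL-6 binds its receptor and brings together the shared subunit gp130, encoded by Il6st, whose JAK kinases phosphorylate STAT3. Socs3 is itself a STAT3 target, and its product binds gp130 and the kinases and ends the signal. In macrophages that lack SOCS3, STAT3 is known to stay phosphorylated for longer after IL-6, and genes otherwise typical of an interferon response are known to be induced. The comparison of the later with the earlier time asks which of the induced genes go on, arrive late or decline when this brake is missing.

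Values below are intensities, the brightness of a probe set after the arrays were brought to a common distribution, and they compare arrays but not different probe sets. A difference is the mean log2 value at 400 min minus that at 100 min, so that 1 stands for a 2-fold difference. A probe set passed the test at an adjusted p under 0.05 (limma over all 17 arrays, Benjamini-Hochberg adjustment over 9871 probe sets). Values under 22.01 were set to that floor before the fit, so a difference that involves them is understated. Where 3 values are listed, they stand in the order of the replicate numbers. Arrays of the same number are set side by side below, but they are not known to be paired.

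The targeted gene was read first. On the Socs3 probe set 92232_at, the arrays labelled KO 400 min read 48.6, 78.5 and 902.6, the KO 100 min arrays read 66.8, 86.2 and 179.5, and the KO arrays without IL-6 read 16.5 to 23.6. Stimulated WT arrays read 2035.9 to 2400.5 at 400 min and 432.4 to 2552.2 at 100 min. The second Socs3 probe set, 162206_f_at, read 121.3, 79.4 and 792.7 on the arrays labelled KO 400 min. It read 1105.3 to 1326.2 on the WT 400 min arrays and 482.7 to 1290.1 on the WT 100 min arrays. Against its label, the array labelled KO 400 min replicate 3 thus exceeded a stimulated WT array on both probe sets. That WT array was WT 100 min replicate 3, at 432.4 and 482.7. Every other stimulated WT array, and so every WT 400 min array, read higher than KO 400 min replicate 3. The other 5 KO arrays with IL-6 lay below all stimulated WT arrays. The array labelled KO 400 min replicate 3 also stood apart on the third principal component (9.1% of the variance). It lay at 53.25, against -1.73 and -2.95 for the other 2 arrays labelled KO 400 min. On the same component KO 100 min replicate 1 lay at -55.72, against -10.72 and -5.29 for its group. On the first component (12.7%) the arrays numbered 3 lay at 0.89 in KO 400 min, 30.49 in KO 100 min and 45.21 in KO without IL-6, each above both other arrays of its group, as they also did in WT cells at both times. Every KO 400 min mean includes the array labelled KO 400 min replicate 3. Values without it are given beside the main counts and a number of the genes and lists that moved in that fit. Through the replicate block that fit also rests on the other arrays numbered 3, so a move need not come from that array alone. Single genes are not listed for the fit without KO 100 min replicate 3. Pairs of arrays correlated over all probe sets with r from 0.859 to 0.915 within KO 400 min, from 0.855 to 0.897 within KO 100 min and from 0.826 to 0.909 across the times. Of 16 macrophage markers 14 were tested, and they summed to 143816, 139382 and 134327 at 400 min, against 153600, 146500 and 131414 at 100 min. On the same arrays the B cell markers, of which 13 of 15 were tested, summed to 3618, 3588 and 3692 at 400 min, against 5876, 4709 and 3833 at 100 min. Markers of neutrophils and their precursors, 13 of 19 tested, summed to 2796, 3074 and 2363 at 400 min and 3041, 2875 and 2009 at 100 min.

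Between 400 and 100 min, 5 genes passed the test in KO macrophages, 0.0708% of the 7063 genes. Fgl2 rose, which is 0.0101% of the probe sets tested, and Alcam, Igf1, Rrm2 and Tmem43 fell, which is 0.0405%. Without the replicate block 0 probe sets passed, with 891 at an unadjusted p under 0.05, against 1142 with the block. Leaving out 1 array at a time left 0 called in 12 of 17 fits, while the Fgl2 difference stayed between 2.29 and 2.81. In these bulk RNA samples, fewer cells that express a gene and less RNA per cell cannot be told apart.

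Fgl2 encodes fibrinogen-like protein 2, an immunoregulatory protein that is secreted or held at the cell surface of macrophages. It read 5827, 5843 and 3236 at 400 min and 1314, 1007 and 364.4 at 100 min, and it had read 247.2, 180.3 and 121.3 without IL-6. Each 400 min array was higher than every 100 min array, and each of those was higher than every array without IL-6. The difference was 2.61 (SE 0.36, adjusted p = 0.0358, limma). In WT cells it was 0.61, at 1765, 1927 and 322.8 after 400 min against 1193, 1118 and 231.7 after 100 min.

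Alcam encodes an adhesion molecule of activated leukocytes that binds CD6. It read 200.5, 181 and 311.8 at 400 min, against 839.3, 754.8 and 1429 at 100 min. The groups did not overlap, and the difference was -2.11 (SE 0.27, adjusted p = 0.0308, limma). Tmem43, a membrane protein of the endoplasmic reticulum and the nuclear envelope, read 936.7, 928.3 and 1697 at 400 min, against 2615, 2111 and 3248 at 100 min. Its groups did not overlap either, and the difference was -1.20 (SE 0.17, adjusted p = 0.0394, limma). The WT differences were -1.13 for Alcam and -0.34 for Tmem43.

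Igf1, the insulin-like growth factor that macrophages secrete, was read by 2 probe sets that disagreed. On 95546_g_at it read 1650, 1375 and 1143 at 400 min, against 4616, 4458 and 3408 at 100 min, without overlap, a difference of -1.59 (SE 0.20, adjusted p = 0.0308, limma). On 95545_at the intensities were 1295, 1061 and 1374 at 400 min and 1186, 1209 and 698.4 at 100 min, a difference of 0.30 (adjusted p = 0.742, limma). The fall therefore rests on the first of the Igf1 probe sets.

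Rrm2 encodes the small subunit of ribonucleotide reductase, which makes the building blocks of DNA. It read 195.9, 160.6 and 1090 at 400 min, against 656, 566 and 3446 at 100 min. The third replicate stood high at both times, so the groups overlapped, while each replicate number showed a fall. The difference was -1.74 (SE 0.24, adjusted p = 0.0358, limma), and -0.52 in WT cells.

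Without the array labelled KO 400 min replicate 3, 13 probe sets passed, 2 of them higher (0.0203%) and 11 lower (0.111%), with 913 at an unadjusted p under 0.05. Alcam, Igf1 and Tmem43 passed in both fits. Fgl2 at 2.29 and Rrm2 at -1.73 each had an adjusted p of 0.0565 there (limma). Those that passed in that fit alone included Arg1, which makes arginase, at 4.26 (adjusted p = 0.0363, limma). The interferon-induced genes Ifit1 at -2.20 and Usp18 at -1.66 also passed, each with an adjusted p of 0.0363. So did Pdcd4, an inhibitor of translation, at -4.02 (adjusted p = 0.0105, limma), and Cpt1a, which brings fatty acids into mitochondria, at -1.69 (adjusted p = 0.0363, limma). Mxd1, a partner of MAX, was at 2.90 and Pstk, a tRNA kinase, at -2.34. The remaining genes were Ifit3 at -3.06, Zfr2 at -2.48 and Sema4d at -1.76, which are named because they complete this count and were chosen after their values were seen.

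**Figure D1:**
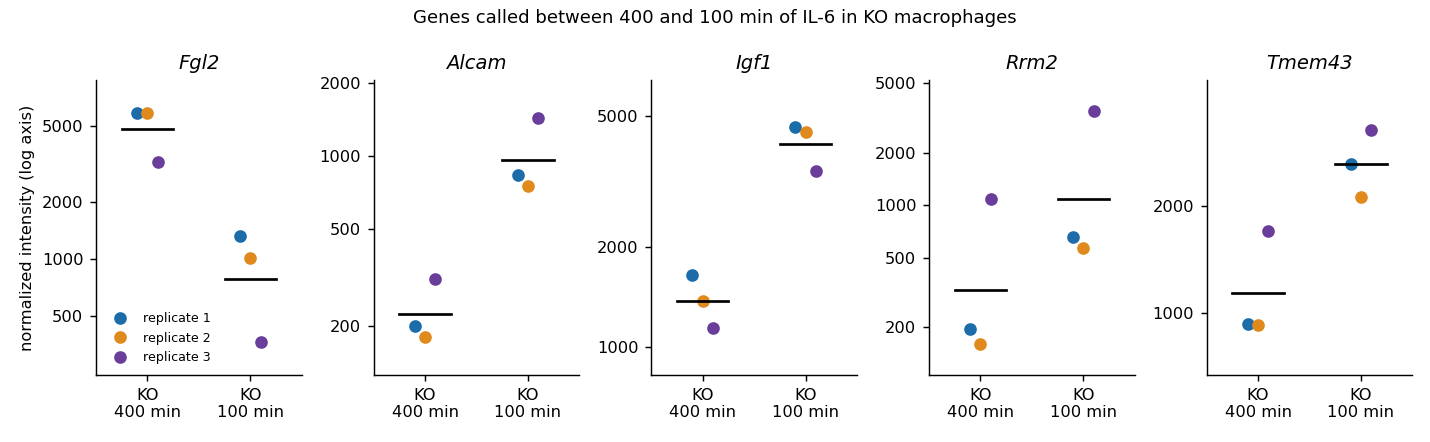
Normalized intensity on a log axis of the 5 genes that passed the test, by array, with KO 400 min left of KO 100 min in each panel. Points are arrays, coloured by replicate number, and the bar is the mean of the log2 values. Fgl2 on the KO 400 min arrays lies at 3236 to 5843, above all KO 100 min arrays at 364.4 to 1314, and Alcam lies at 181 to 311.8 below all KO 100 min arrays at 754.8 to 1429.

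Promoters are shown as examples of the time courses: Fgl2, which rose, Rrm2, which fell, the late gene Gbp2, the declining gene Ifit1 and Cxcl10, a sustained gene near the border to declining. Each runs from 250 bases before to 50 after the RefSeq start of the gene in GRCm38.p6, 5′ to 3′ on the strand of the gene. Capitals mark matches, on either strand, to TTCNNNGAA (the form of a STAT site), to GAAA followed after 2 bases by another GAAA (the core of the interferon-stimulated response element) or to CCAAT (the box bound by NF-Y), and no match printed overlaps another. The Fgl2 window is chr5:21372423-21372722, + strand, and holds 1 STAT form. Gbp2 has chr3:142620413-142620712, + strand, with 1 interferon element. Ifit1 has chr19:34640639-34640938, + strand, with 2 interferon elements. Cxcl10 has chr5:92348840-92349139, - strand, with 1 interferon element and 1 CCAAT box. Rrm2 has chr12:24708004-24708303, + strand, with 1 CCAAT box. Of the other genes that fell, not printed here, Tmem43 also held 1 STAT form, and Alcam and Igf1 each held 1 CCAAT box.
Fgl2: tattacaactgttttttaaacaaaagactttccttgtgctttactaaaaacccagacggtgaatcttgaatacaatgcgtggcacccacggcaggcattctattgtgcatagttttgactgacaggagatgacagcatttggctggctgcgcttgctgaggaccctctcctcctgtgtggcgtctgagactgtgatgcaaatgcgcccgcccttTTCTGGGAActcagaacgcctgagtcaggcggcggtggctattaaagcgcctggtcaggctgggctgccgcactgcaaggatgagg
Gbp2: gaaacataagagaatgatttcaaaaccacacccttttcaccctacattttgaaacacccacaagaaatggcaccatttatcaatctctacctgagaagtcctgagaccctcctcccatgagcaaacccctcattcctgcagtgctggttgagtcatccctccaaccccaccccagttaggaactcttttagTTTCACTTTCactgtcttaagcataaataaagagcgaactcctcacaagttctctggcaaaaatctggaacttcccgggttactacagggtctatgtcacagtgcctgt
Ifit1: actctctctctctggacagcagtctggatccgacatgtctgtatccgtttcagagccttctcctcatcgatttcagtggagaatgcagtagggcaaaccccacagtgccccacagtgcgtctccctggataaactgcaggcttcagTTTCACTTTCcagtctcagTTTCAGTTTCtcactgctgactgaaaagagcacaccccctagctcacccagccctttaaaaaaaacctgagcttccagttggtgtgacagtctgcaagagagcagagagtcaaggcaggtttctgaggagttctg
Cxcl10: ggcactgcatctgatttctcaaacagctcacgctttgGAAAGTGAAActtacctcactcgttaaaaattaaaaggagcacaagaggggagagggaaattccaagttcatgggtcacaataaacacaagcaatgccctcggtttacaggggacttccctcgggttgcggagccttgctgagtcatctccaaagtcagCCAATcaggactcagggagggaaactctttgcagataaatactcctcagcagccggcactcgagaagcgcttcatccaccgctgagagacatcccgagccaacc
Rrm2: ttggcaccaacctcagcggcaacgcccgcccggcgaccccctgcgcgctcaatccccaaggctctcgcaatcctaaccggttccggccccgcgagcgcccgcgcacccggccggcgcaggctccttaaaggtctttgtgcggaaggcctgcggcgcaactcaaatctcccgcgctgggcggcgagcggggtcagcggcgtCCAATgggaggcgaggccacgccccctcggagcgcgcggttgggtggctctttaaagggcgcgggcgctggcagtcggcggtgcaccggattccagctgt
Among 27025 promoters of this length the STAT form stood in 8.47%, the interferon element in 3.49% and CCAAT in 37.9%. Among the genes tested here 5662 had a promoter in the table, with 7.03%, 3.32% and 38.7% in the same order. Of the late genes described below, 2 of 14 promoters found held the STAT form and 3 the interferon element, and of the sustained genes 13 of 86 held each. These matches describe the letters and are no evidence of binding.

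The IL-6 induced genes of KO cells were taken from another contrast of the same fit, the mean of both IL-6 times minus no IL-6, which does not favour either sign of the difference between the times. In that contrast 138 probe sets rose (1.4% of those tested), which gave 116 genes (1.64%). By the difference between 400 and 100 min, 17 of the 116 were late (higher by 1 or more, 14.7%), 98 were sustained (within less than 1, 84.5%) and 1 was declining (lower by 1 or more, 0.862%). Averaging the times favours genes raised at both and can miss those raised at only 1, so the sustained share partly reflects this choice. Usp18, with KO means of 773.3, 2357 and 885.6 at 0, 100 and 400 min, did not pass as induced. Neither did Arg1, at 50.59, 157.9 and 1837. Among all 7063 genes tested, 4.73% were higher by 1 or more and 5.1% were lower. The median difference of the induced genes was 0.30, against -0.01 for all genes, and 76 of the 116 were above 0 where 48.7% of all genes were. KO groups did not overlap for 32 induced genes that were higher at 400 min (7.6% among all genes) and for 7 that were lower (7.8%).

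The split into late, sustained and declining moved with the arrays used. In the fit without the array labelled KO 400 min replicate 3, there were 12 late, 90 sustained and 5 declining genes (of all genes, 5.22% were higher and 5.52% lower by 1 or more in that fit), and with replicates 1 and 2 of every group alone there were 9, 76 and 8. Without KO 100 min replicate 3 the counts were 10 late and 8 declining. Between arrays of the same number, 14, 16 and 28 of the 116 genes were higher by 1 or more for replicates 1, 2 and 3, and 7, 6 and 2 were lower. All 3 same-number differences were above 0 for 60 of the 116 genes and below 0 for 17, and for 73 genes all 3 were within 1. Among all 7063 genes those counts were 1195, 1306 and 3923.

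The late genes were, by size of the difference, Fgl2, Saa3, Mrc1, AW112010, Fcgr2b, Ly86, Il18bp, Ndrg1, Gbp2, Csf2rb, Gja1, Timp1, Tlr6, Fcgr1, Snx2, Il1b and Psmb10. Of the 17, only Fgl2 passed the test, and the median of the 17 without the array labelled KO 400 min replicate 3 was 1.24, against 1.37 with it. Without that array 13 of the 17 were higher by 1 or more, but fewer kept the class. Gbp2, Fcgr1, Il1b and Psmb10 were sustained there, and Saa3, AW112010, Csf2rb, Timp1 and Tlr6 no longer passed as induced. Arg1 and Il13ra1 were among the genes late in that fit alone. The WT median of the 17 was 0.37. In WT cells 1 of the 17 was higher by 1 or more, as were 3.74% of all genes, while 4.57% of all genes were lower by 1 or more there. Just inside the threshold were Psmb10 at 1.01 and Il1b at 1.03, and just outside it were Tspan13 and Il4ra, both at 0.99, and Snx5 at 0.95. On the declining side Ifit1 was at -1.48, and the nearest sustained genes were Cxcl10 at -0.92 and Noct at -0.89. Tspan13, Snx5 and Noct are named here for their place beside the threshold.

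**Figure D2:**
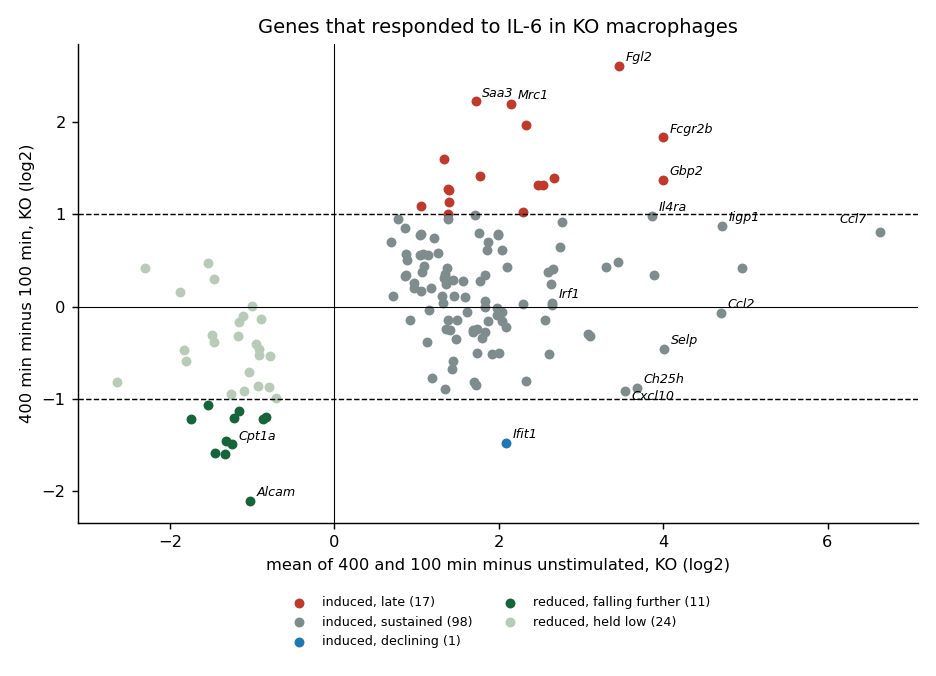
Each point is a gene that responded to IL-6 in KO macrophages, with its mean response over 400 and 100 min relative to no IL-6 (log2) across and its 400 minus 100 min difference (log2) up. Dashed lines stand at 1 and -1. Of the 116 induced genes, 98 lie between the lines, 17 above and 1 below, and the reduced genes on the left lie mostly below 0.

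Saa3, a serum amyloid A made by macrophages, read 1105, 867.8 and 6047 at 400 min and 187.3, 177.9 and 1704 at 100 min. All 3 pairs of the same number were higher at 400 min, but the third replicate was high at both times and the groups overlapped. The difference was 2.23 (SE 0.41, adjusted p = 0.0805, limma), and 0.42 in WT cells. Mrc1, the mannose receptor of macrophages, read 6663, 6368 and 1948 at 400 min and 2221, 1221 and 313.7 at 100 min, with the third replicate low at both times. Its difference was 2.20 (SE 0.41, adjusted p = 0.0805, limma), and 0.21 in WT cells. Ndrg1, a stress-responsive gene, read 11500, 11500 and 14180 at 400 min, against 5180, 5478 and 3645 at 100 min. Its groups did not overlap, and the differences were 1.39 (adjusted p = 0.0805) and, on a second probe set, 1.34 (adjusted p = 0.0565, limma).

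Both an inhibitory and an activating Fc receptor for IgG were among the late genes. Fcgr2b, the inhibitory receptor, read 8061, 7863 and 13820 at 400 min, against 3090, 2211 and 2820 at 100 min and 199.5 to 657.9 without IL-6. Groups did not overlap, and the difference was 1.84 (SE 0.40, adjusted p = 0.111, limma). Fcgr1, the activating receptor of high affinity, read 11060, 11550 and 11160 at 400 min, against 5860, 6103 and 3783 at 100 min, also without overlap. Its difference was 1.13 (adjusted p = 0.162, limma), and 1.67 on its second probe set. Without the array labelled KO 400 min replicate 3 the Fcgr1 difference was 0.89, inside the limit of 1. Of 24 genes of Fc receptors and phagocytosis tested, 2 were higher and 1 was lower by 1 or more, where 4.73% and 5.1% of all genes were. The median difference of the 24 was 0.02. Cd14, the coreceptor for lipopolysaccharide, was the lower one, at 7784, 7265 and 13060 at 400 min, against 18430, 19410 and 21740 at 100 min. Its groups did not overlap, and the difference was -1.13 (adjusted p = 0.208, limma).

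The other late genes differed by smaller amounts or had wider spreads. Timp1, an inhibitor of metalloproteinases and a known target of gp130 signals, read 2323, 3464 and 2451 at 400 min, against 1431, 931.6 and 1035 at 100 min. These groups did not overlap, and the difference was 1.28, against -0.20 in WT cells. Ly86, the partner protein of the receptor RP105, read 4051, 4089 and 1293 at 400 min and 1698, 1712 and 263.2 at 100 min, so that only the third replicates made the groups overlap. Il18bp, which neutralises IL-18, read 594.8, 674.5 and 426.6 at 400 min, against 264.8, 168.1 and 201.7 at 100 min. Its difference was 1.42 (adjusted p = 0.209, limma), against -0.95 in WT cells. For Il1b the intensities were 163.7, 140.8 and 234.6 at 400 min and 165.3, 163.6 and 23.55 at 100 min. The Il1b difference of 1.03 came from the third pair and was 0.38 without the array labelled KO 400 min replicate 3.

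Among the receptors and signalling proteins of the pathway, 14 of 18 listed genes were tested, and 2 were higher by 1 or more while 0 were lower. Their median difference was 0.50, and 0.29 without the array labelled KO 400 min replicate 3. None passed the adjusted test, and 4 were higher and 1 lower at an unadjusted p under 0.05, where 5.56% and 6.82% of all genes were. Il6st (gp130), itself induced, read 2225, 2102 and 1009 at 400 min and 1384, 1302 and 505.4 at 100 min on the brighter probe set. Each pair of the same number was higher at 400 min, by 0.79 on average (adjusted p = 0.209), and the second probe set gave 1.24 (adjusted p = 0.0805, limma). Stat3 read 5008, 4764 and 4001 at 400 min, against 3149, 3476 and 2662 at 100 min, without overlap. Its difference was 0.57 (adjusted p = 0.253, limma), close to the 0.53 of WT cells. Jak3, a kinase of the common gamma chain receptors, was at 1.04, and 1.22 in WT cells. Il6ra, the IL-6 binding subunit, was at 0.42, with 309.9 to 563.7 at 400 min and 217.9 to 434.2 at 100 min.

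Il4ra, the signalling chain of the IL-4 and IL-13 receptors, was among the strongly induced genes. It read 26430, 25020 and 21530 at 400 min, against 15780, 15630 and 7421 at 100 min and 980.8 to 1713 without IL-6. The times did not overlap, with a difference of 0.99 (SE 0.26, adjusted p = 0.17, limma), and WT cells gave 0.73. Il13ra1, its partner chain, read 595.7, 509.1 and 312.3 at 400 min, against 275.9, 225 and 228.5 at 100 min. That was a difference of 0.91 (adjusted p = 0.394, limma) without overlap. Csf2rb, the beta chain shared by the receptors for GM-CSF, IL-3 and IL-5, was a late gene at 1.32, with 1167, 1033 and 2292 at 400 min, against 503.5, 611.3 and 575.6 at 100 min.

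Of 22 listed feedback inhibitors, 18 were tested, and 0 were higher or lower by 1 or more, with a median of -0.03. At an unadjusted p under 0.05 there were also 0 in either direction. Socs1, which restrains interferon signals, read 827.9, 848.5 and 852.5 at 400 min and 573.5, 1169 and 771.3 at 100 min, so the groups overlapped. Without IL-6 it read 257.9, 318.9 and 283.2, below all 6 IL-6 arrays. The Socs1 difference was 0.07, and -0.17 without the array labelled KO 400 min replicate 3. Cish and Socs2, typical STAT5 targets, were at -0.72 and -0.48, against -0.28 and -0.20 without the array labelled KO 400 min replicate 3, and neither passed as induced.

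Of 32 immediate early and delayed early genes tested, 6 were induced, and all 6 were sustained. Of the 32, 2 were higher and 1 was lower by 1 or more. Junb, a part of the AP-1 transcription factor, read 1951, 1439 and 1830 at 400 min and 1596, 1203 and 1406 at 100 min, a difference of 0.31. Myc, induced by 2.29 over no IL-6, differed between the times by 0.03, with 138.3, 120.4 and 100.5 at 400 min and 117.1, 141 and 95.22 at 100 min. Bcl3, a nuclear partner of NF-kappaB, was at -0.27 and Gadd45g, a stress sensor, at -0.29. Without the array labelled KO 400 min replicate 3 they were at -0.69 and 0.21, so Gadd45g turned in sign. Cebpd, a STAT3 target, was lower at 400 min on every array, at 1065, 1230 and 1007 against 1796, 1757 and 2201 at 100 min, by -0.80 (adjusted p = 0.253, limma). Fos was reduced by IL-6 in KO cells and stayed low, at 202.5, 191.3 and 286.1 at 400 min and 360.6, 244.1 and 429.9 at 100 min, against 728.4 to 1204 without IL-6.

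Of the CC chemokines, which attract monocytes and other leukocytes, 4 were induced, and all 4 were sustained: Ccl2, Ccl7, Ccl12 and Ccl4. Ccl7 read 14580, 13740 and 2930 at 400 min and 9402, 7265 and 1604 at 100 min, and 100.1, 115.6 and 9.132 without IL-6. Each same-number pair was higher at 400 min and the groups overlapped through the third replicates, with a difference of 0.81 (SE 0.27, adjusted p = 0.263, limma). Ccl2 read 14810, 16440 and 3910 at 400 min and 14180, 12790 and 6002 at 100 min, a difference of -0.06. Ccl12 gave 0.41 and Ccl4 0.01, and without the array labelled KO 400 min replicate 3 the values were 0.01 for Ccl2, 0.21 for Ccl12 and -0.35 for Ccl4. In WT cells Ccl7 was at -1.52, Ccl2 at -1.06 and Ccl12 at -1.16.

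Ccl8, another monocyte chemokine, was higher on all arrays at 400 min. It read 2406, 1596 and 3936 at 400 min, against 415.6, 371.4 and 305.7 at 100 min. The difference was 2.77 (SE 0.80, adjusted p = 0.209, limma), and -0.03 in WT cells. Ccl8 did not count as induced, since its rise over no IL-6 had an adjusted p of 0.0534 (limma). Ccl22, a ligand of CCR4, was at 1.37, with 614.2, 648.3 and 472.6 at 400 min, against 120.9, 307.3 and 294.6 at 100 min. Of 13 CC chemokines tested, 3 were higher by 1 or more and 0 were lower, with a median of 0.41. That median was 0.24 without the array labelled KO 400 min replicate 3.

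All 6 CXC chemokines tested were below 0, as were 3626 of all 7063 genes, and their median was -0.71. Of the 6, 1 was lower by 1 or more and 1 was lower at an unadjusted p under 0.05, and 0 passed the adjusted test. Cxcl10, an interferon-induced ligand of CXCR3, read 1113, 1155 and 1239 at 400 min, against 1799, 1678 and 3539 at 100 min and 78.67 to 238.2 without IL-6. Its groups did not overlap, and the difference was -0.92 (SE 0.42, adjusted p = 0.43, limma), against -1.51 in WT cells. Cxcl9, another such ligand, read 15.76, 12.86 and 57.03 at 400 min and 342.9, 264.4 and 25.35 at 100 min. The pairs numbered 1 and 2 were far lower at 400 min, with both 400 min values under the floor, while the third pair was higher, and the difference of -2.13 had an adjusted p of 0.377 (limma).

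The guanylate-binding proteins (GBPs) and immunity-related GTPases (IRGs), which defend macrophages against intracellular microbes, were all induced where tested. All 8 genes tested of the 16 listed were among the 116 induced genes, 1 as late and 7 as sustained. Their median difference between the times was 0.05 in KO cells, where 1 was higher by 1 or more and 0 were lower. In WT cells the median was -2.06, and 7 of the 8 were lower by 1 or more. Without the array labelled KO 400 min replicate 3 the KO median was -0.12, with 3 lower by 1 or more.

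Gbp2 read 8024, 7891 and 10520 at 400 min, against 4992, 4688 and 1634 at 100 min and 304.6 to 378.1 without IL-6. The times did not overlap, and the difference was 1.37 (SE 0.37, adjusted p = 0.19, limma), and 0.94 without the array labelled KO 400 min replicate 3. In WT cells Gbp2 read 893.5, 946.7 and 546 at 400 min and 2162, 1770 and 775 at 100 min, a difference of -0.89. Gbp3 was at 0.48 in KO cells, with 3408, 4220 and 2550 at 400 min and 3242, 3230 and 1291 at 100 min, and at -2.17 in WT cells. Gbp7 was at -0.32 in KO cells, with 3236, 3020 and 2602 at 400 min and 4865, 4616 and 2197 at 100 min, and at -2.22 in WT cells. Each KO 400 min value of these 3 genes was higher than every WT 400 min value.

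Iigp1, an IRG that loads onto the vacuoles of parasites, read 1245, 1310 and 2611 at 400 min, against 1199, 959.4 and 600.3 at 100 min and 32.75 to 70.55 without IL-6. The difference was 0.88 (adjusted p = 0.587, limma), and 0.31 without the array labelled KO 400 min replicate 3. WT cells read 159.9, 21.94 and 38.44 at 400 min, against 760.3, 517.2 and 338.8 at 100 min, a difference of -3.31 (adjusted p = 0.0632, limma). Ifi47, another IRG, gave 0.43 in KO cells and -2.05 in WT cells. The regulatory IRGs Irgm1 and Irgm2 were lower at 400 min in KO cells too, without overlap. Irgm1 read 1157, 1280 and 1210 at 400 min, against 2311, 2961 and 1520 at 100 min, a difference of -0.85 (adjusted p = 0.242, limma). Irgm2 was at -0.80, and in WT cells Irgm1 fell by 2.07 on the log2 scale (adjusted p = 0.0298, limma) and Irgm2 was at -1.87. Irgm1 was among 3 probe sets that fell in WT cells (0.0304%), where 2 rose. Of the 8 genes, 7 had a promoter in the RefSeq table, and 6 of these held the interferon element.

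Genes typical of type I interferon, which act mostly against viruses, held the declining gene. Of 52 listed, 35 were tested, with a median of -0.15. Of the 35, 1 was higher and 6 were lower by 1 or more, where 4.73% and 5.1% of all genes were. At an unadjusted p under 0.05, 0 were higher and 9 were lower, where 5.56% and 6.82% of all genes were. Without the array labelled KO 400 min replicate 3 the median was -0.28, 9 were lower by 1 or more, and 12 were lower at an unadjusted p under 0.05, where 5.85% of all genes were. The median of the same-number differences was -0.38 and -0.34 for numbers 1 and 2 and 0.24 for number 3, so the third pair ran the other way. WT cells had a median of -0.75, with 12 lower by 1 or more. The interferon element stood in 11 of the 28 promoters found.

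Ifit1, which binds foreign RNA caps, was the declining gene of the induced set. It read 1135, 1208 and 1076 at 400 min and 5289, 5528 and 1092 at 100 min, and 677.3, 638.7 and 203.4 without IL-6. The pairs numbered 1 and 2 were much lower at 400 min and the third pair was level, so the groups overlapped, with a difference of -1.48 (SE 0.47, adjusted p = 0.248, limma). Usp18, which removes ISG15 and dampens the interferon receptor, read 1046, 701.3 and 910 at 400 min, against 3049, 2820 and 1202 at 100 min. Its groups did not overlap, and the difference was -1.32 (SE 0.27, adjusted p = 0.0954, limma). Cmpk2, a mitochondrial nucleotide kinase, read 247.6, 197.1 and 208.2 at 400 min, against 1010, 828.9 and 308.7 at 100 min, a difference of -1.56 (adjusted p = 0.125, limma) that its dimmer probe set did not show, at 0.82. Rsad2 (viperin), next to Cmpk2 in the genome, was at -1.09, also without overlap. Isg15 differed from these, at 3783, 4106 and 3308 at 400 min and 4166, 4059 and 1709 at 100 min, a difference of 0.28, and 0.11 without the array labelled KO 400 min replicate 3. In WT cells Ifit1 was at -1.86, Usp18 at -1.52, Cmpk2 at -1.20, Rsad2 at -1.18 and Isg15 at -0.86.

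**Figure D3:**
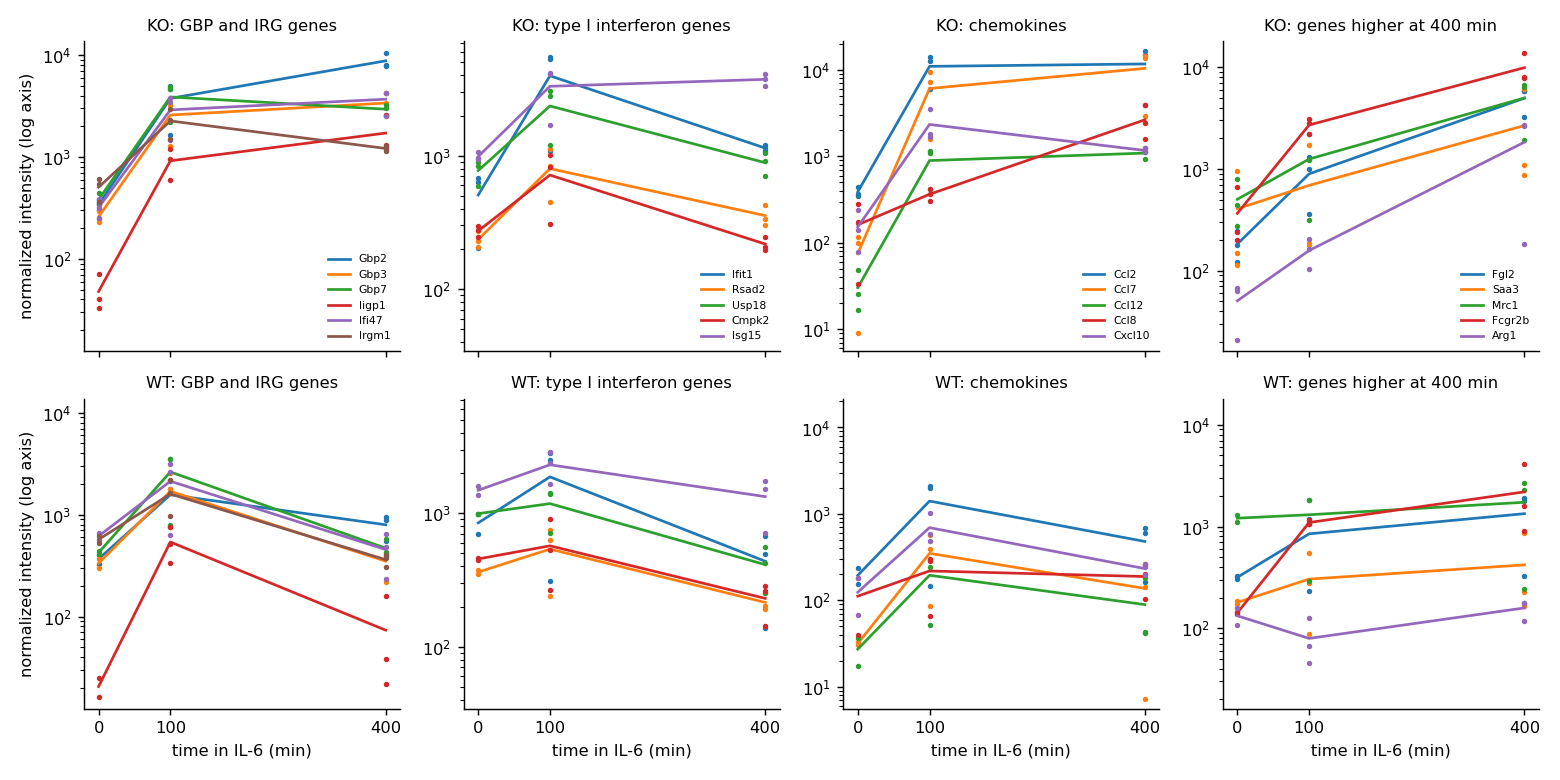
Normalized intensity on a log axis against time in IL-6 (0, 100 and 400 min), KO in the upper and WT in the lower row, for GBP and IRG genes, type I interferon genes, chemokines and genes higher at 400 min. Points are arrays and lines join the arithmetic means. Gbp2 in KO cells stands at 7891 to 10520 at 400 min while in WT cells it stands at 546 to 946.7, and Ifit1 is lower at 400 than at 100 min in the means of both rows.

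Interferon regulatory factors stayed within 1 of their level at 100 min. Irf1, a transcription factor of interferon responses, read 4667, 4244 and 3788 at 400 min and 5767, 5352 and 2228 at 100 min, against 553.2 to 902.9 without IL-6, and it was sustained at 0.04. Irf9, the DNA-binding part of the interferon-activated complex, was lower on all arrays at 400 min, at -0.61 (adjusted p = 0.284, limma). Irf7 was at 0.29 and Irf8 at -0.29, and without the array labelled KO 400 min replicate 3 Irf1, Irf7 and Irf8 were at -0.13, 0.18 and -0.59. With all arrays, 0 of the 7 factors tested differed by 1 or more. The immunoproteasome subunit Psmb10 was late, at 6580, 6870 and 5728 at 400 min, against 4001, 3485 and 2276 at 100 min, without overlap. Its difference was 1.01 (adjusted p = 0.123, limma), and 0.79 without the array labelled KO 400 min replicate 3, while Psmb8 and Psmb9 were at 0.44 and 0.43. Of 15 genes of peptide loading and the immunoproteasome, 12 were above 0, where 48.7% of all genes were, with a median of 0.31, and 0.12 without the array labelled KO 400 min replicate 3.

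Ch25h and Selp were induced and sustained. Ch25h makes 25-hydroxycholesterol, an antiviral oxysterol. It read 1374, 1271 and 1991 at 400 min and 3502, 3348 and 1850 at 100 min, a difference of -0.88, and -1.30, past the limit of 1, without the array labelled KO 400 min replicate 3. Selp (P-selectin), an adhesion receptor, was at -0.46, with 310.5, 440.1 and 328.2 at 400 min and 818.1, 607.9 and 233.3 at 100 min. In both genes the pairs numbered 1 and 2 were lower at 400 min and the third pair was higher. Of 33 listed STAT3 and IL-10 type target genes, 29 were tested and 13 were induced, 4 of them late and 9 sustained. Of the 29, 6 were higher and 1 was lower by 1 or more. Among all genes 1.64% were induced, 4.73% were higher and 5.1% were lower. Without the array labelled KO 400 min replicate 3, 5 of the 29 were higher and 2 were lower. The median of the same-number differences was -0.06, -0.02 and 0.26 for numbers 1, 2 and 3.

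Of 22 acute phase and complement genes tested, 5 were higher and 1 was lower by 1 or more, with a median of 0.37, and 6 were higher and 0 lower at an unadjusted p under 0.05, where 5.56% and 6.82% of all genes were. The WT median was similar, at 0.36, with 1 higher by 1 or more. Beside Fgl2 and Saa3, C1qc, a chain of complement C1q, read 19580, 17510 and 9154 at 400 min and 11330, 11060 and 2894 at 100 min. C1qc was at 1.04 (adjusted p = 0.111, limma), and 0.90 in WT cells. Lrg1, a leucine-rich glycoprotein induced by gp130 cytokines, was sustained at 0.64, with 161.7, 250.5 and 550.9 at 400 min and 221.4, 105.5 and 251.1 at 100 min.

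Genes of arginine use and alternative activation had 6 of 18 higher by 1 or more and 0 lower, where 4.73% and 5.1% of all genes were. Their median was 0.35. In WT cells 3 of the 18 were higher by 1 or more and 0 were lower, with a median of -0.08. Without the array labelled KO 400 min replicate 3 the KO median was 0.74, with 5 higher by 1 or more and 0 lower. In the third same-number pair alone 4 were higher and 4 were lower by 1 or more. Arg1 read 2645, 2683 and 183.9 at 400 min and 164.3, 206.5 and 102.8 at 100 min. The arrays numbered 1 and 2 were far above every 100 min array. The one numbered 3 lay within the range of the 100 min arrays, and at 100 min the array numbered 3 was the lowest too. With the array labelled KO 400 min replicate 3 the Arg1 difference was 2.85 (SE 0.88, adjusted p = 0.238, limma), and without it 4.26. The WT difference of Arg1 was 1.10. Nos2, the inducible nitric oxide synthase that competes for arginine, was at 0.13, with 23.64 to 121.6 at 400 min and 26.59 to 127.8 at 100 min. Il1rn, the IL-1 receptor antagonist, read 2361, 1976 and 515.3 at 400 min and 2218, 2199 and 557.7 at 100 min, a difference of -0.06, and 0.43 without the array numbered 3 at 400 min.

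Among genes that IL-6 lowered in KO cells, more were lower still at 400 min than returned. In the contrast of both IL-6 times with no IL-6, 42 probe sets fell (0.425%), which gave 35 genes (0.496%). Of the 35, 11 were lower by 1 or more at 400 min than at 100 min, 24 were held within 1 and 0 returned by 1 or more. Their median difference was -0.71, against -0.02 in WT cells, and it was -0.65 without the array labelled KO 400 min replicate 3. All 3 same-number differences were below 0 for 27 of the 35. Cpt1a read 592.9, 925.5 and 1365 at 400 min, against 2268, 2476 and 2986 at 100 min and 3385 to 3792 without IL-6. The groups stood in order with no overlap, and the difference was -1.49 (SE 0.24, adjusted p = 0.0612, limma), against -0.19 in WT cells. Card19, a protein of NF-kappaB signalling, was at -1.22 (adjusted p = 0.0805, limma), against -0.17 in WT cells.

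Of the genes of cholesterol and lipid handling, 21 of 26 tested were below 0, as were 3626 of all 7063 genes. Among the 26, 1 was higher and 4 were lower by 1 or more, where 4.73% and 5.1% of all genes were. Their median was -0.49, against 0.05 in WT cells. Without the array labelled KO 400 min replicate 3, 9 were lower by 1 or more (5.52% of all genes) and the median was -0.63. The same-number medians were -0.77, -0.50 and -0.09 for numbers 1, 2 and 3, with 10, 9 and 3 genes lower by 1 or more. Lpl, which frees fatty acids from lipoproteins, read 5157, 5036 and 4172 at 400 min, against 11500, 11550 and 11870 at 100 min. The groups did not overlap, and the difference was -1.29 (SE 0.25, adjusted p = 0.0805, limma), against -0.84 in WT cells. Plin2, which coats lipid droplets, read 8223, 6346 and 7821 at 400 min, against 13060, 16030 and 11950 at 100 min, a difference of -0.87 (adjusted p = 0.111, limma). Idi1, an enzyme of sterol synthesis, was at -1.18. Fabp5, a fatty acid carrier, was the higher one, at 1927, 1505 and 2459 at 400 min, against 820.3, 838.5 and 413.4 at 100 min. Its difference was 1.55 (SE 0.30, adjusted p = 0.085, limma), and 0.77 in WT cells.

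Of the cell cycle genes, 35 of 43 tested were below 0, as were 3626 of all 7063 genes. Among the 43, 0 were higher and 9 were lower by 1 or more (5.1% of all genes were lower), 15 were lower at an unadjusted p under 0.05 (6.82% of all genes), and Rrm2 passed the adjusted test. The median was -0.51, against -0.29 in WT cells, and 6 were lower by 1 or more without the array labelled KO 400 min replicate 3. The list summed to 40240, 37067 and 53177 at 400 min, against 43242, 42758 and 76577 at 100 min, highest in the third replicate at both times. Mcm7, a subunit of the replicative helicase, read 381.4, 363.8 and 660.9 at 400 min, against 724.6, 734.5 and 2193 at 100 min, without overlap. Its difference was -1.22 (adjusted p = 0.111, limma). Mki67, the proliferation marker Ki-67, read 1019, 1116 and 1289 at 400 min, against 2084, 1809 and 2698 at 100 min, a difference of -0.93 (adjusted p = 0.123, limma). E2f1, which switches on S phase genes, was at -2.06 (adjusted p = 0.085, limma), and at 0.88 on its second probe set. CCAAT stood in 24 of 36 promoters of cell cycle genes, and in 38.7% of those of all genes tested.

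Outside the induced genes, Hmox1 and Pdia6 were higher on all arrays at 400 min in both genotypes. Hmox1, which breaks down heme, read 15530, 10520 and 11060 at 400 min, against 5244, 5146 and 4389 at 100 min. Its difference of 1.31 (SE 0.24, adjusted p = 0.0805, limma) without overlap stood beside 1.47 in WT cells. Pdia6, a disulfide isomerase of the endoplasmic reticulum, read 2563, 2547 and 1909 at 400 min, against 878.7, 1034 and 761.8 at 100 min. It was at 1.39 (adjusted p = 0.0805, limma) in KO cells and 1.25 in WT cells. Herpud1, which acts in the disposal of misfolded proteins, was at 1.31 in KO cells and 0.02 in WT cells. Nav2, a cytoskeletal protein, was lower at 400 min, at 458.4, 230.1 and 554.6 against 1331, 1511 and 1599 at 100 min, by -1.93 (adjusted p = 0.0565, limma).

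Of 14 genes of MHC class II and costimulation, which present antigen to T cells, 12 were above 0, with a median of 0.59 in KO cells and 0.44 in WT cells, and 0 were at an unadjusted p under 0.05. The KO median was 0.29 without the array labelled KO 400 min replicate 3, and between arrays of the same number it was 0.21, 0.06 and 1.14 for numbers 1, 2 and 3. Of 35 NF-kappaB inflammatory genes, 2 were higher and 4 were lower by 1 or more, with a median of -0.04. Plaur, the urokinase receptor on this list, read 220, 44.36 and 28 at 400 min, against 294, 336.4 and 377 at 100 min, a difference of -2.36 (adjusted p = 0.215, limma), and -1.39 without that array. Genes of mitochondrial respiration had a median of -0.08, those of lysosomes and cathepsins 0.06, and splicing factors -0.19, with at most 1 member of each list beyond 1 in either direction.

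**Figure D4:**
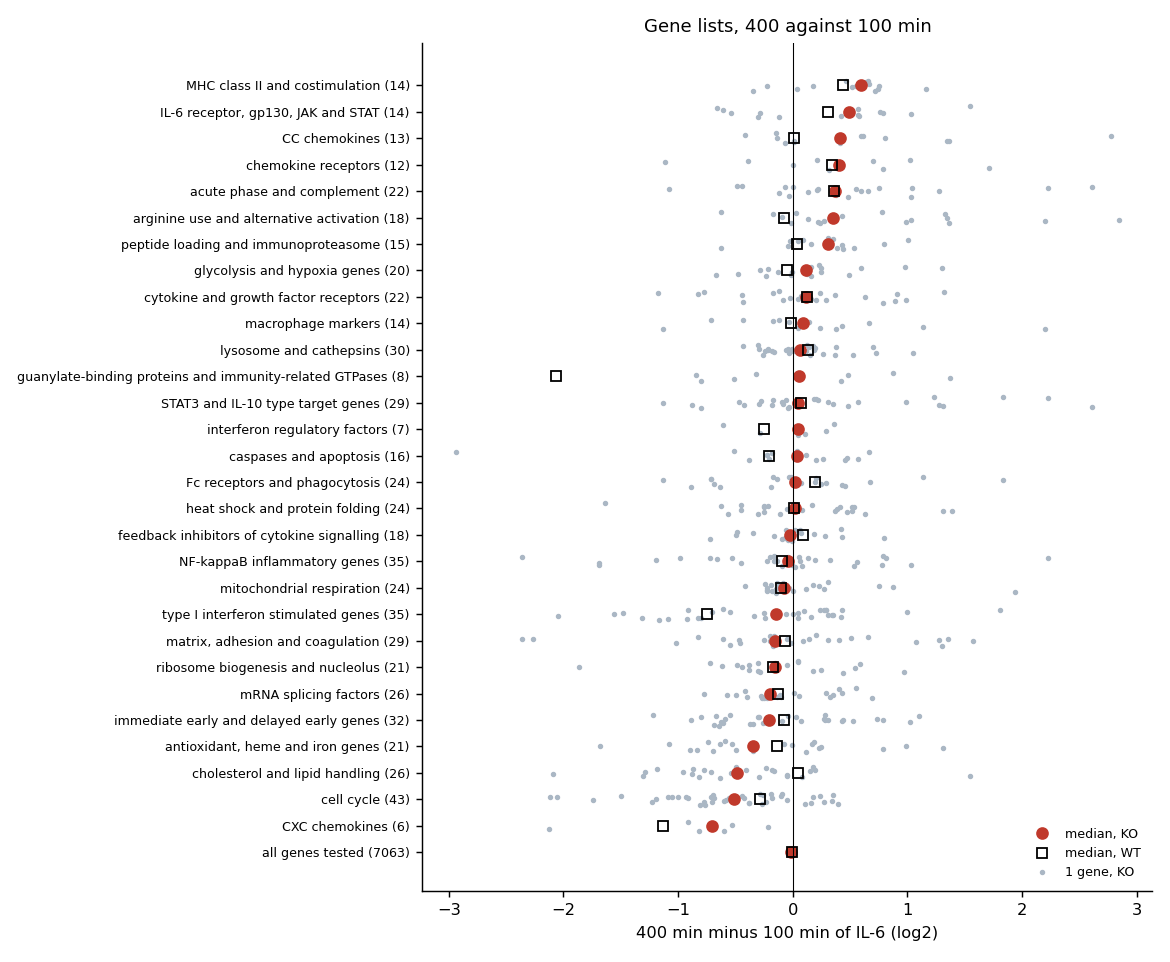
Median 400 minus 100 min difference (log2) of each gene list in KO cells (filled circles) and in WT cells (open squares), with the single genes in KO cells as small dots and the number of genes tested in brackets. The GBP and IRG list stands at 0.05 in KO cells and -2.06 in WT cells, and the cell cycle list at -0.51 and -0.29.

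Whether the time course differs between the genotypes was tested as an interaction, the KO difference between 400 and 100 min minus the WT difference, which come from separate arrays. For 94 of the 116 induced genes the KO difference was the larger, where this held for 48% of all genes, and 31 were larger at an unadjusted p under 0.05, where 2.86% of all genes were. At the adjusted threshold 0 induced genes passed, and the lowest adjusted p was 0.117, for Ccl7 (limma). Ccl7 differed by 2.33 (SE 0.38), Iigp1 by 4.19 (SE 0.76, adjusted p = 0.152) and Ifi47 by 2.48 (adjusted p = 0.152, limma). Gbp2 differed by 2.27 and Gbp3 by 2.65, each with an adjusted p of 0.467 (limma). In WT cells 20 of the 116 genes were lower by 1 or more at 400 min and 3 were higher, with a median of -0.05. Across the 116 genes, which are not independent replicates, the KO and WT differences correlated with Pearson's r of 0.426 and Spearman's rho of 0.489, and across all 7063 genes with 0.192 and 0.239.

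The interaction passed the test for 2 probe sets, 0 with a larger and 2 with a smaller difference in KO cells (0.0203%). Rabgap1l, a regulator of Rab GTPases, read 24.1, 66.06 and 44.49 in KO cells at 400 min and 121.8, 175.1 and 150.6 at 100 min, against 121.4, 165.2 and 136.3 in WT cells at 400 min and 33.86, 19.24 and 35.56 at 100 min. The times ran in opposite directions in the genotypes without overlap, with an interaction of -4.06 (SE 0.43, adjusted p = 0.0097, limma). A probe set of Cd247, the zeta chain of the T cell receptor, gave -4.43 (SE 0.54, adjusted p = 0.0213, limma), at intensities of 11.19 to 249.7 on the 12 arrays. The other Cd247 probe set gave 0.97 (adjusted p = 0.986, limma), so the probe sets of this gene disagreed. The KO and WT arrays at these times also differed in sex-linked genes, which were chosen after their values were seen. Eif2s3y, on the Y chromosome, read 7.67 to 84.3 on the 6 KO arrays and 245.1 to 789.8 on the 6 WT arrays. Xist, of the inactive X, read 232.4 to 581.1 on the KO arrays and 11.2 to 146.3 on the WT arrays. Genotype and these differences cannot be told apart here. The array labelled KO 400 min replicate 3 is among these 6 KO arrays and lay outside the WT range on both genes. Whether it was mislabelled was not tested.

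**Figure D5:**
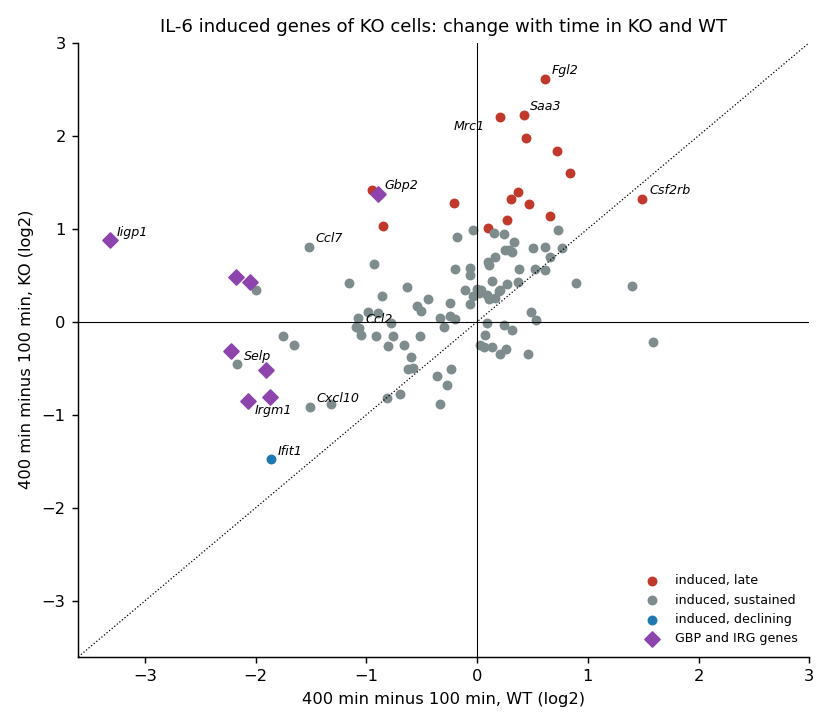
The 400 minus 100 min difference (log2) in KO cells is plotted against that in WT cells, for the 116 induced genes, coloured by pattern, with diamonds for the GBP and IRG genes. The dotted line marks equal differences. Of the 116 induced genes 94 lie on the side of a larger KO difference.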

How the data were processed

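Gene expression was measured on 17 arrays. The authors deposited 1 table of linear intensities, with 12488 probe sets measured on each; from the values, the mean without the lowest and highest 2% was 500.3 to 500.4 on every array, so the deposited intensities had been scaled per array. The sources used here do not give the programs, the background treatment or the details of scaling. No detection calls were used, and the number of arrays limits the precision.

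Array medians (164.25 to 216.95) differed by 0.401 on the log2 scale, above a limit of 0.3, so values were quantile normalized, raised to at least the 10th percentile of all values (22.01) and log2 transformed. The 66 control probe sets were left out, and 9871 probe sets were tested, those brighter than the 40th percentile on 2 or more arrays. limma 3.58.1 (R 4.3.3) fitted 1 mean per group plus the replicate number over 17 arrays with 9 residual degrees of freedom, and p-values were adjusted by Benjamini-Hochberg. The test was checked on simulated data. Tables were made with Python 3.11.15 and pandas 2.3.3. Per the platform's annotation 10855 probe sets had 1 gene symbol, 396 several and 1237 none; genes were named only from the first kind, and the probe set with the highest mean stood for a gene (7063 genes).

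The comparison and the 36 gene lists, which hold 824 genes of which 603 were tested, were chosen with earlier results of these data known. Named genes are those with the lowest p or largest change, the late, declining and most induced genes, up to 4 genes per list, the genes of lowest p in the test between genotypes, and a set of known IL-6 response genes; exceptions are marked. Promoter sequences are from RefSeq (GRCm38.p6). Alternatives covered the block, the arrays fitted, the normalization, the floor, the filter and the test.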

Additional observations from a re-analysis of the deposited data

Results flagged for a closer look

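The probe set of Cd247 that passed the test between genotypes stood out because its times ran in opposite directions, with an interaction of -4.43 (SE 0.54). It read 34.12, 71.94 and 29.29 in KO cells at 400 min and 249.7, 105.3 and 122.3 at 100 min, against 127.2, 144.7 and 130.3 in WT cells at 400 min and 16.11, 11.19 and 19.14 at 100 min. The last 3 values lie under the floor. Rabgap1l stood out for the same reason, with an interaction of -4.06 (SE 0.43), a difference of -1.83 in KO cells and 2.23 in WT cells. All 3 same-number pairs ran one way in each genotype for both genes. No value of either probe set was above 249.7 on these 12 arrays.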

How the results depend on the processing

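The labels do not say what a replicate number marks. Deviations of the 400 and 100 min KO arrays from their group means correlated by 0.028, 0.058 and 0.139 for numbers 1, 2 and 3, not all above 0.1. Of the 6 arrays, 3 matched their own number best. The numbers are therefore not known to pair single arrays, and counts of same-number differences carry that limit. The array numbered 3 lay above its group on the first principal component in all 5 groups that hold one. The main fit kept the number as an additive block, and its 5 calls depend on that block. With no replicate block 0 probe sets were called between KO 400 and KO 100 min in place of 5, 8 genes were late, 0 declining, and 0 probe sets were called between the WT times. With replicate 3 as a batch of its own 9 were called in KO cells. Only KO arrays in the fit gave 0 called, 71 induced probe sets, 11 late, 0 declining and 50 sustained genes, and only the 6 KO arrays with IL-6 gave 0 called; these fits can give no value for WT cells, and the last none for induction. Only replicates 1 and 2 gave 1 called, 9 late, 8 declining, 0 between genotypes and 9 in WT cells. The deposited values without quantile normalization gave 1 between genotypes (in place of 2) and 2 in WT cells (in place of 5), and cyclic loess gave 9 in KO and 9 in WT cells. A floor at the 5th percentile gave 1 between genotypes; at the 20th percentile there were 10 called in KO cells, 2 declining and 1 between genotypes. With log2(value + 50) there were 11 called in KO cells, 2 declining, 1 between genotypes and 8 in WT cells. No filter gave 0 called in KO cells, and a filter at the 60th percentile on 3 arrays gave 72, 4 declining, 0 between genotypes and 16 in WT cells. An intensity trend with a robust prior gave 141 called in KO cells, 225 induced probe sets, 26 late, 4 declining and 160 sustained genes, 4 between genotypes and 36 in WT cells. Array weights gave 60 called in KO cells, 209 induced, 2 declining and 31 in WT cells. The cause of these moves was not tested, beyond the fewer probe sets or arrays of the filters and subsets.

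Leaving out 1 array at a time gave 0 to 13 called in KO cells (13 without the array labelled KO 400 min replicate 3, 7 and 6 without WT 100 min replicates 2 and 3, 4 and 9 without WT 400 min replicates 2 and 3, and 0 without any 1 of the other 12), 64 to 148 induced probe sets, 6 to 17 late, 0 to 8 declining and 51 to 107 sustained genes, 0 to 5 between genotypes and 0 to 15 in WT cells. Fgl2, Alcam, Igf1, Rrm2 and Tmem43 kept their direction throughout and their calls in 9 of 14 other alternatives. Signal over background could not be read, so dim genes such as Cxcl9, Cd247 and Rabgap1l are the least certain.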
